A study of Mus musculus with 6 samples.

Results

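Type 1 conventional dendritic cells (cDC1) were taken from CD45+ cells that had been sorted from mouse liver and profiled one by one. A cell was chosen when the mean of its deposited scaled values for Xcr1, Clec9a, Wdfy4 and Naaa, as far as the matrix of its site held these genes, was above 1.5 and the mean for Cd79a and Cd3e was below 1. This rule chose 505 of 23008 cells. The matrices hold variable genes only, so the rule rested on Clec9a, Wdfy4 and Naaa in adjacent tissue and in micrometastases, and on Xcr1, Clec9a and Naaa in macrometastases. Levels of these genes in the chosen cells therefore describe the choice, and no set of replicates exists beside it to test them in.

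Immunocompetent Balb/c mice had received 4T07 cells (4TO7 in the deposited labels), a mouse mammary tumour line, into the heart. The tumour cells were either control cells (Ctrl) or cells with a short hairpin RNA knockdown of Tim3 (Tim3-KD), the gene Havcr2 of the checkpoint receptor TIM-3. The 6 libraries came from liver tissue free of tumour next to metastases at day 3 (adjacent tissue), from micrometastases at day 3 and from macrometastases at day 12, each with a Ctrl and a Tim3-KD library. Each library was a pool of 2 mice, whose ages are not given in the sources used here, and each group had 1 library. All mice carried tumour cells, and the knockdown was in the injected cells and not in the host, so the Havcr2 level of the sorted immune cells does not check the labels. Without replicate libraries no difference within a site could be tested. All intervals below are 95% intervals that cover counting error only.

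Conventional dendritic cells of type 1 arise from Flt3-dependent precursors under the transcription factors Irf8 and Batf3. They take up material of dead cells through receptors such as Clec9a, carry it to MHC class I molecules by cross-presentation and prime CD8+ T cells against tumours. Xcr1 on their surface binds a chemokine made by activated T cells and natural killer cells, and their own Cxcl9 and Cxcl10 attract effector T cells, mostly after interferon. In liver they are a small fraction of the leukocytes beside the abundant Kupffer cells, the resident macrophages.

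The libraries held 542 to 5502 cells each, with a median of 6300 to 10248 UMIs (unique molecular identifiers, each standing for 1 captured transcript) per cell, and the adjacent Tim3-KD library was the smallest. In the chosen cells the median was 17484 UMIs in Ctrl and 24120 in Tim3-KD adjacent tissue, 12562 and 8679 in micrometastases, and 15018 and 14248 in macrometastases. Of 22948 barcode sequences 59 occurred in more than 1 library and 2 of those belonged to a chosen cell, none of them in both libraries. Adjacent tissue contributed only 51 chosen cells, so its values are the least precise.

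The cells on either side of the threshold were close together. The lowest mean inside was 1.501 in adjacent tissue, 1.505 in micrometastases and 1.508 in macrometastases, and the highest mean outside was 1.497, 1.492 and 1.496. The median mean inside was 3.09, 3.65 and 4.81. Within 0.1 of the threshold lay 4, 17 and 19 chosen cells and 2, 23 and 10 cells that were not chosen. A further 0, 8 and 5 cells passed the first condition and were excluded by Cd79a and Cd3e.

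The chosen cells were not uniform, and the number of rule genes with a UMI separated them. All 3 rule genes were detected in 309 cells, 2 in 117 cells and only 1 in 79 cells. In the 309 cells genes that go with the label were widely detected. Cst3, a protease inhibitor abundant in conventional dendritic cells, was detected in 100%, 100% and 100% of cells in adjacent tissue, micrometastases and macrometastases. The MHC class II gene H2-Ab1 was detected in 100%, 99.2% and 100%, and Irf8 in 100%, 96.0% and 100%. Cst3 was also detected in 91.9%, 93% and 88.5% of the CD45+ cells that were not chosen, so its detection does not support the label. For Irf8 these shares were 36.5%, 31% and 38.8%. Batf3 was detected in 76.7%, 84.9% and 88.2% of the 309 cells. Its share of all UMIs in them was 12.75-fold, 13.55-fold and 6.61-fold that in the cells not chosen. In Tim3-KD adjacent tissue 7 of 11 cells with all 3 rule genes carried at least 3 marker genes of another cell type, against 53 of all 309. The label is least certain there. The 79 cells with a single rule gene went against the label. H2-Ab1 was detected in 50%, 34.5% and 34.8% of those cells, while Cdh5, a cadherin of endothelial cells, was detected in 50%, 48.3% and 65.2%, against 13.3%, 2.38% and 7.19% of the cells with all 3. Depth differed too, with a median of 4629, 4428 and 4191 UMIs in cells with 1 rule gene and 28414, 13926 and 17386 in cells with 3. Csf3r, the growth factor receptor of neutrophils, was detected in 58.8%, 42.2% and 25% of the cells with 2 rule genes. Results are therefore given for all 505 cells and beside them for the 309 cells, called core cells below, a group defined after the data were seen.

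**Figure D1:**
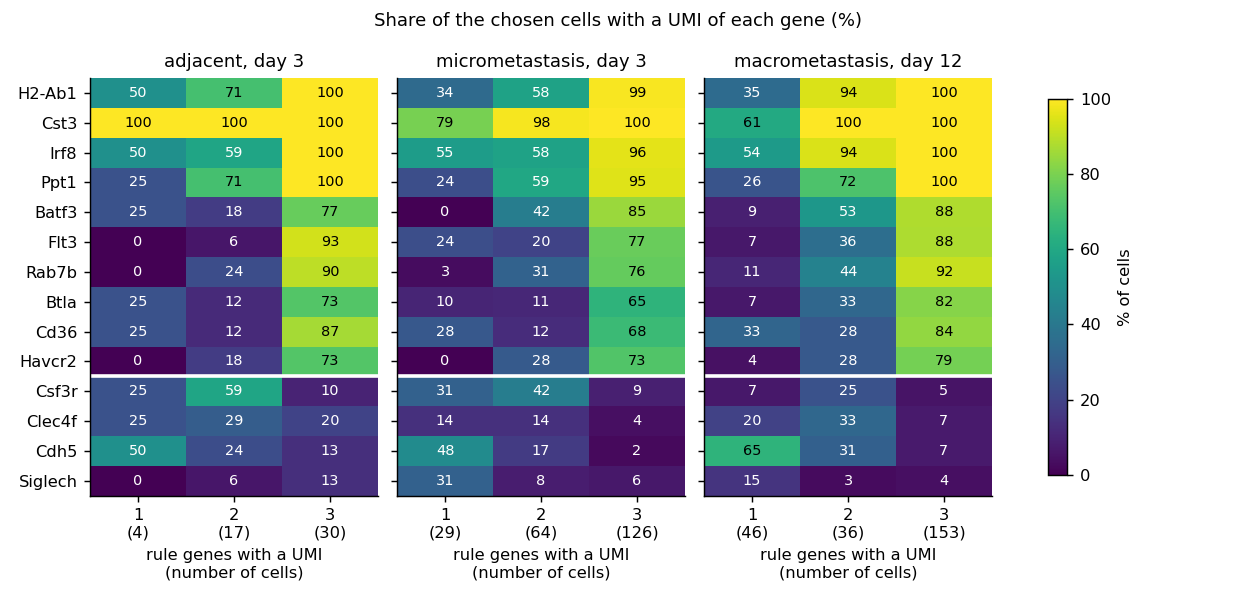
Share of chosen cells with at least 1 UMI of each gene (colour, percent), by number of rule genes detected (columns, within each site). Dendritic cell genes above the white line fill in toward 3 rule genes, H2-Ab1 reaching 100%, 99.2% and 100%, while Cdh5, a gene of endothelial cells below the line, is densest at 1 rule gene.

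Markers of other liver cells were present beside the dendritic genes. Of the 505 cells 193 had at least 3 detected genes of another cell type's marker list, among them 53 of the 309 core cells. Kupffer cell markers were met in 57 cells, endothelial markers in 48, monocyte markers in 26, plasmacytoid dendritic cell markers in 24, hepatocyte markers in 20, neutrophil markers in 15, T cell markers in 11, B cell markers in 8, type 2 conventional dendritic cell markers in 4, natural killer cell markers in 2 and basophil or mast cell markers in 0. The share with such markers was 43.8% in Ctrl and 73.7% in Tim3-KD adjacent tissue, 34.0% and 34.7% in micrometastases, and 40.1% and 34.6% in macrometastases. The adjacent Tim3-KD library stood apart with the highest share. The summed level of the 8 Kupffer markers in the chosen cells was 627 CPM (the UMIs of a gene in each 1000000 UMIs) in Ctrl and 4571 in Tim3-KD adjacent tissue, 999 and 1886 in micrometastases, and 924 and 1957 in macrometastases, higher in Tim3-KD at every site. In core cells it was 62.0 and 3575, 76.5 and 1331, and 91.9 and 57.2, so that in macrometastases the higher Kupffer signal of Tim3-KD was not found in core cells. T cell markers summed to at most 88.2 CPM over all chosen cells of a library and at most 117 CPM over its core cells.

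The genes that set the chosen cells apart from the other CD45+ cells are given as a description only, since the same cells were chosen on some of them. Among genes that the rule did not use, Flt3, the growth factor receptor of the lineage, stood at 144 CPM in the chosen cells and 5.60 CPM in the other cells of adjacent tissue, 106 and 4.79 in micrometastases, and 129 and 7.38 in macrometastases. Cst3 reached 20.2-fold, 21.5-fold and 16.9-fold of the level in other cells. P2ry14, a receptor for UDP sugars, was 18.4-fold, 24.6-fold and 13.7-fold higher, and these 3 genes were among the 10 highest at every site. The C-type lectin Cd207 was 69.5-fold higher in micrometastases and 24.5-fold higher in macrometastases, where Tlr3, the sensor of double-stranded RNA, was 28.6-fold higher. Slamf7 and the inhibitory receptor Btla were among the 10 highest at both metastatic sites, and Tbc1d4, Cdk14 and Ece1 in adjacent tissue, where Tbc1d4 was 30.0-fold higher. The libraries of adjacent tissue differed in these ratios, which were 62.7 in Ctrl and 4.96 in Tim3-KD for Tbc1d4, 40.4 and 7.84 for Cdk14, 35.8 and 6.83 for Ece1, and 32.9 and 5.33 for P2ry14.

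The first comparison asked how frequent these cells were in liver seeded by Ctrl or Tim3-KD tumour cells. In micrometastases and in macrometastases their share of CD45+ cells was lower with Tim3-KD, and in adjacent tissue it was higher. Micrometastases held 144 of 5106 cells, 2.82% (95% interval 2.38 to 3.31), in Ctrl and 75 of 5142 cells, 1.46% (95% interval 1.15 to 1.82), in Tim3-KD. Macrometastases held 157 of 4913 cells, 3.20% (95% interval 2.72 to 3.73), in Ctrl and 78 of 5502 cells, 1.42% (95% interval 1.12 to 1.77), in Tim3-KD. In adjacent tissue the counts were 32 of 1803 cells, 1.77% (95% interval 1.22 to 2.50), in Ctrl and 19 of 542 cells, 3.51% (95% interval 2.12 to 5.42), in Tim3-KD. The difference, Tim3-KD minus Ctrl, was -1.36 points (-1.93 to -0.805) in micrometastases, -1.78 points (-2.38 to -1.20) in macrometastases and 1.73 points (0.288 to 3.70) in adjacent tissue. Paired by site, the mean difference over the 3 sites was -0.470 points ± 1.92 (SD), with an exact two-sided permutation p of 0.75, where 3 pairs cannot go below 0.25. The sites differed in the sign of the difference and in tissue, day or rule genes, so this mean and p describe no single site. The ratios of shares were 0.517 in micrometastases, 0.444 in macrometastases and 1.98 in adjacent tissue. A share of sorted cells moves with the number of every other cell type, so fewer dendritic cells and more of other cells cannot be told apart.

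Core cells gave the same direction, at -0.828 points (-1.27 to -0.404) in micrometastases, -1.42 points (-1.91 to -0.955) in macrometastases and 0.976 points (-0.0922 to 2.59) in adjacent tissue, where the interval spanned 0. Core cells made up 1.65% and 0.817% of the Ctrl and Tim3-KD cells of micrometastases, 2.22% and 0.800% in macrometastases, and 1.05% and 2.03% in adjacent tissue. Without the cells that had 3 or more genes of another cell type, the differences were -0.908 points (-1.38 to -0.454), -0.986 points (-1.46 to -0.534) and -0.0758 points (-0.856 to 1.20) at these 3 sites, so the higher share in Tim3-KD adjacent tissue was not found in that setting. Taken only over cells that were not neutrophils, the differences were -1.29 points (-1.93 to -0.659), -1.80 points (-2.47 to -1.15) and 1.39 points (-0.143 to 3.41). When cells were instead chosen by a UMI of at least 2 rule genes, 8.77% and 8.52% of the Ctrl and Tim3-KD cells of micrometastases qualified and the difference was -0.256 points (-1.35 to 0.833). That alternative gave -0.882 points (-1.48 to -0.299) in macrometastases and -2.90 points (-5.21 to -0.167) in adjacent tissue.

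**Figure D2:**
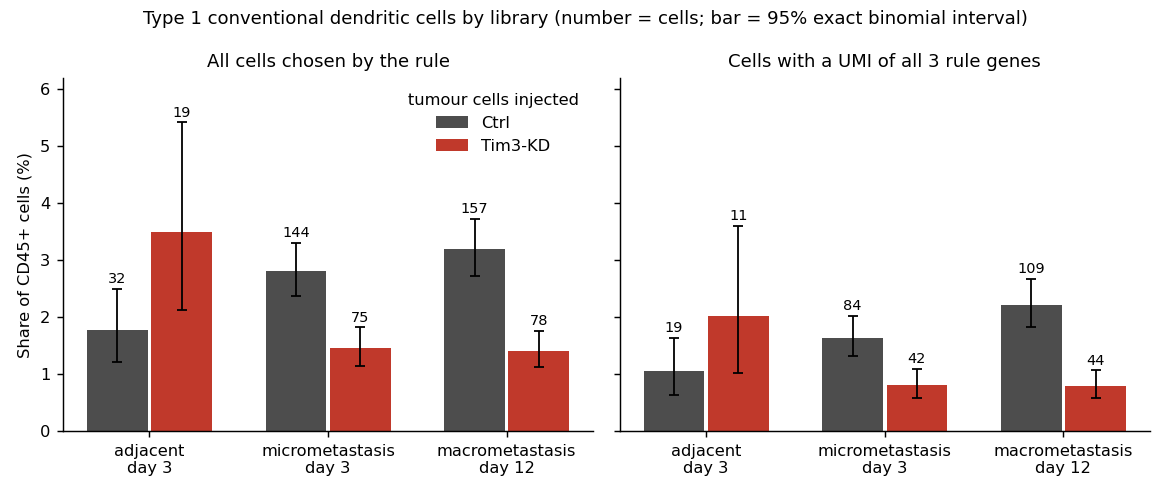
Share of CD45+ cells (percent) that were chosen as type 1 conventional dendritic cells, left for all chosen cells and right for cells with a UMI of all 3 rule genes. Bars are libraries with exact 95% binomial intervals and the numbers are cells, and in both panels the Tim3-KD bar is lower in micrometastases (1.46% against 2.82% on the left) and macrometastases (1.42% against 3.20%).

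Across sites of the Ctrl line, the share was 1.05 points (0.212 to 1.76) higher in micrometastases than in adjacent tissue. In the Tim3-KD line the same difference was -2.05 points (-3.97 to -0.745), in the opposite direction. Between macrometastases and micrometastases the Ctrl difference was 0.375 points (-0.295 to 1.05) and the Tim3-KD difference -0.0409 points (-0.502 to 0.414), both intervals spanning 0. The rule used Xcr1 in macrometastases and Wdfy4 at the day 3 sites, and values were scaled within each site, so shares of different sites are set side by side with that limit. Type 2 conventional dendritic cells, found by a like rule on their own markers, numbered 134 of 5106 Ctrl cells and 70 of 5142 Tim3-KD cells in micrometastases, 2.62% (2.20 to 3.10) and 1.36% (1.06 to 1.72). The lower share in Tim3-KD micrometastases was thus seen in both conventional types. For dendritic cells, with no type named, the paper describes the other direction, a reduction in Ctrl against Tim3-KD micrometastases. Plasmacytoid dendritic cells made up 0.372% (0.224 to 0.580) of Ctrl and 0.408% (0.253 to 0.624) of Tim3-KD cells in micrometastases. In macrometastases they made up 0.794% (0.565 to 1.08) in Ctrl and 0.418% (0.265 to 0.627) in Tim3-KD, the same direction as type 1 cells. The intervals of these single shares overlapped at both sites, which does not show that a difference is absent. No interval of the difference was computed for type 2 or plasmacytoid cells. In adjacent tissue the type 2 rule had 2 genes and gave 1.72% (1.17 to 2.43) in Ctrl and 5.35% (3.61 to 7.59) in Tim3-KD, so type 2 cells had the higher share in the Tim3-KD library too. In macrometastases the type 2 rule had a single gene left and gave 4.11% in Ctrl and 5.23% in Tim3-KD, with no lower share in Tim3-KD.

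Levels were compared as UMIs of a gene summed over the chosen cells of a library, in CPM of all their UMIs. A gene was compared where both libraries together held at least 50 UMIs, and it was called higher or lower past a 2-fold difference. Irf8, a transcription factor of the lineage that was outside the rule, stood at 1055 CPM in the Ctrl and 1109.8 in the Tim3-KD library of adjacent tissue, 1263 and 1205 in micrometastases, and 1410.3 and 1364 in macrometastases. The highest and the lowest of these 6 values differed by less than the 2-fold limit. Batf3, the partner of Irf8 in this lineage, was at 77.5 CPM in the Ctrl and 86.3 in the Tim3-KD library of adjacent tissue, 184 and 127 in micrometastases, and 156 and 113 in macrometastases, which is lowest in adjacent tissue. The levels of the rule genes describe the choice of cells. Clec9a, the receptor for exposed actin of dead cells, was at 322 CPM in the Ctrl and 209.8 in the Tim3-KD library of adjacent tissue, 235 and 292 in micrometastases, and 314 and 258 in macrometastases. Naaa, a lysosomal acid amidase, was at 1169 CPM in the Ctrl and 598 in the Tim3-KD library of adjacent tissue, 1009 and 1028 in micrometastases, and 1331 and 1057 in macrometastases. Xcr1 was held in the macrometastasis matrix only, at 292 CPM (271 to 315) in Ctrl and 243 CPM (214 to 274) in Tim3-KD.

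Of the cDC1 markers outside the rule, 9 were compared between Tim3-KD and Ctrl in micrometastases and none was past 2-fold in either direction, where 10.2% of all 1038 genes compared were past it. Their median log2 difference was -0.10, against 0.12 over all genes. In macrometastases 8 were compared and 1 was past 2-fold, where 9.99% of all 991 genes were past it. That gene was Cd8a, which marks cDC1 of lymphoid tissue, at 14.0 CPM with Tim3-KD and 25.2 with Ctrl in micrometastases, and 3.75 with Tim3-KD and 24.4 with Ctrl in macrometastases. Its UMIs in macrometastases numbered 4 with Tim3-KD and 57 with Ctrl, and the ratio was 0.171 (0.0405 to 0.415), and 0.228 in core cells. In the other CD45+ cells the ratio of Cd8a was 0.910. The lectin Cd207 was at 86.8 CPM with Tim3-KD and 131 with Ctrl in micrometastases, and 228 with Tim3-KD and 269 with Ctrl in macrometastases, and Tlr3 in macrometastases at 88.1 CPM with Tim3-KD and 115 CPM with Ctrl.

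The antigen-presenting genes were abundant, and at both metastatic sites they stayed within 2-fold between the lines, with H2-Ab1 and H2-Aa lower with Tim3-KD in micrometastases. H2-Ab1 stood at 6847 CPM in the Ctrl and 4647 in the Tim3-KD library of adjacent tissue, 6948 and 5831 in micrometastases, and 6271 and 6048 in macrometastases. H2-Aa, the partner chain, was at 8200.2 CPM with Tim3-KD and 9278 with Ctrl in micrometastases, and 8544 with Tim3-KD and 8341 with Ctrl in macrometastases. None of 9 MHC class II genes compared in micrometastases and none of 8 in macrometastases was past 2-fold between Tim3-KD and Ctrl, where 10.2% and 9.99% of all genes were. Their median log2 difference was -0.18 and -0.09, against 0.12 and 0.01 over all genes. In core cells it was -0.18 and -0.08, against 0.16 and -0.03. In the other CD45+ cells the same genes had a median of -2.26 in micrometastases and -0.81 in macrometastases, where the cell types are mixed and all genes compared had -0.51 and -0.23. In adjacent tissue 1 of 8 was past 2-fold, where 33.1% of all genes were past it and 16.4% lower. That gene was H2-Oa, which encodes a chain of the class II peptide-loading regulator H2-O, at 0.471-fold (95% interval 0.304 to 0.706) and 0.479 in core cells. The median log2 difference of the 8 genes there was -0.46, and -0.67 in core cells. H2-Oa was also lower in micrometastases than in adjacent tissue of the Ctrl line, at 0.496-fold, and 0.527 in core cells, short of 2-fold. Cst3 was at 21975 CPM in the Ctrl and 12741 in the Tim3-KD library of adjacent tissue, 22096 and 23538 in micrometastases, and 20638 and 22634 in macrometastases, lowest in the adjacent Tim3-KD library.

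Havcr2, the gene knocked down in the injected tumour cells, was among the genes that mark these dendritic cells. Its level was 70.4 CPM in the Ctrl and 51.0 in the Tim3-KD library of adjacent tissue, 93.8 and 91.0 in micrometastases, and 87.3 and 88.1 in macrometastases, with little spread between the 4 metastatic libraries. A UMI of Havcr2 was found in 51.4% of chosen cells in Ctrl and 48% in Tim3-KD micrometastases, and in 8.83% and 3.77% of the other CD45+ cells. The median depth of the other cells was 7394 UMIs in Ctrl, below that of the chosen cells, and 9379 in Tim3-KD, above it. In macrometastases the shares were 58.0% and 53.8%, against 4.52% and 4.92% of the other cells. Tim3-KD over Ctrl was 0.974-fold (95% interval 0.716 to 1.30) in micrometastases and 1.01-fold (95% interval 0.782 to 1.29) in macrometastases. Both intervals include 1.

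**Figure D3:**
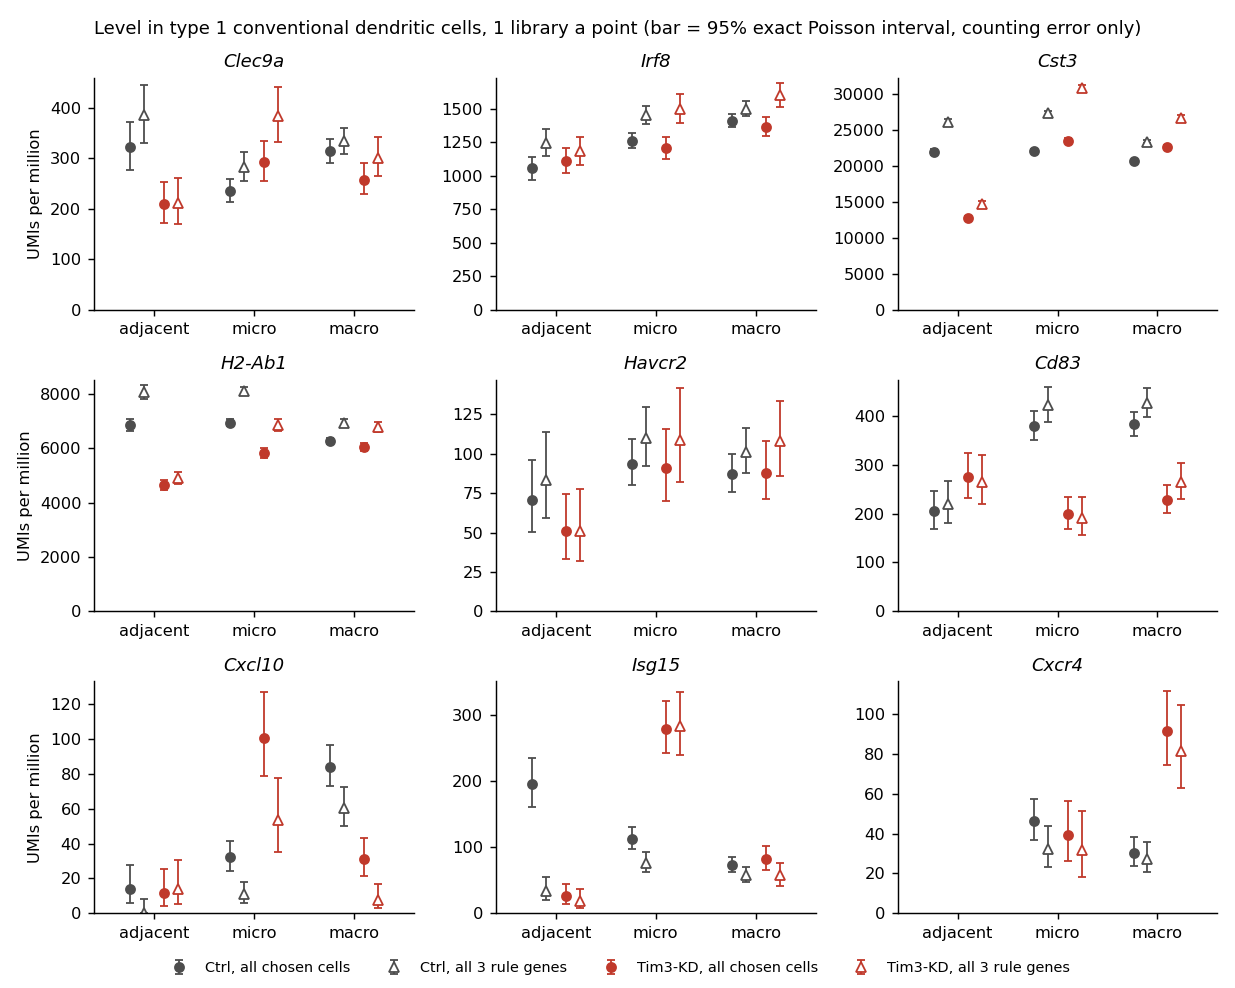
Level of 9 genes in the chosen cells of each library (CPM, own axis for each gene), circles for all chosen cells and triangles for core cells, with exact 95% Poisson intervals. Irf8 is level across libraries, at 1263 and 1205 CPM in Ctrl and Tim3-KD micrometastases, while Cd83 is lower and Isg15 and Cxcl10 are higher in the Tim3-KD library of micrometastases. Cxcr4 is not held in the adjacent matrix.

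Cd83, of the maturation genes, was lower with Tim3-KD at both metastatic sites. This gene encodes a surface protein of activated dendritic cells and was at 204 CPM in the Ctrl and 275 in the Tim3-KD library of adjacent tissue, 379 and 199 in micrometastases, and 382 and 228 in macrometastases. In micrometastases the ratio of Tim3-KD to Ctrl was 0.526-fold (95% interval 0.435 to 0.630), just short of the 2-fold limit, and in core cells it was 0.457. In macrometastases it was 0.597-fold (95% interval 0.515 to 0.687) and 0.620 in core cells. Cd83 was also lower in the other CD45+ cells, with ratios of 0.158 and 0.501. A per-cell count of 6 maturation genes, of which Cd83 supplied 67.0% to 82.4% of the UMIs, put 63.9% of Ctrl and 46.7% of Tim3-KD cells of micrometastases at 3 or more UMIs, a difference of -17.2 points (-30.4 to -3.41). The difference in macrometastases was -14.3 points (-27.2 to -1.22), from 68.2% to 53.8%. In core cells the differences were -22.6 points (-38.9 to -6.60) and -9.88 points (-25.0 to 2.57), and with a minimum of 5 UMIs over all chosen cells -28.7 points (-40.1 to -15.3) and -11.8 points (-24.7 to 1.71), so in macrometastases both of these intervals spanned 0. Of the other CD45+ cells 25.8% and 9.93% reached this count in micrometastases and 30.8% and 24.7% in macrometastases. With each cell thinned to 1500 UMIs the shares were 7.64% and 4% in micrometastases and 7.01% and 5.13% in macrometastases, with intervals of the difference that spanned 0. Of 8 genes of maturation and migration compared in micrometastases 1 was past 2-fold higher (Cd274) and none lower, and of 6 in macrometastases Ccr7 was higher and Marcksl1 lower. The share of all genes past 2-fold was 10.2% and 9.99%, near that of this list in micrometastases.

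Ccr7, the receptor that guides mature dendritic cells to lymph nodes, was at 8.81 CPM in the Ctrl and 15.7 in the Tim3-KD library of adjacent tissue, 8.58 and 9.80 in micrometastases, and 4.71 and 43.1 in macrometastases. Its 46 UMIs in Tim3-KD macrometastases lay in 7 of 78 cells, 1 of which held 60.9%, and the 11 UMIs of Ctrl lay in 5 of 157 cells. Without the cell with most UMIs in each library the ratio was 6.22.

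Several genes induced by interferon were higher in the chosen cells of Tim3-KD micrometastases than in those of Ctrl. Of 12 genes of the type I interferon response compared, 4 were past 2-fold and all 4 were higher (Isg15, Oasl1, Rsad2 and Rtp4), and of 11 genes of the interferon-gamma response 5 were past it, all higher (Cd274, Cxcl10, Iigp1, Irgm1 and Serpina3g). Of all genes compared 10.2% were past 2-fold and 6.74% were past it on the higher side. The median log2 difference was 0.64 for the first list and 0.99 for the second, against 0.12 over all genes compared. In the other CD45+ cells of the same libraries the medians of these genes were -0.74 and -0.52, against -0.51 over all genes compared, so there the lists did not stand on the higher side. Core cells had 0.63 and 0.93 over the 9 and 5 genes that could be compared in them, of which 2 and 2 were past 2-fold, all higher. Of all 606 genes compared in core cells 55 were past 2-fold higher and 25 lower, with a median log2 difference of 0.16.

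The promoters of 3 of these genes are shown because they hold the letters of an element that interferon-activated factors are known to bind. Each is the RefSeq sequence of GRCm38.p6 from 250 bases before to 50 bases after the annotated start, written 5′ to 3′ on the strand of the gene, with matches of GAAANNGAAA or its reverse complement in capitals.
Isg15, chr4:156200769-156201068, minus strand: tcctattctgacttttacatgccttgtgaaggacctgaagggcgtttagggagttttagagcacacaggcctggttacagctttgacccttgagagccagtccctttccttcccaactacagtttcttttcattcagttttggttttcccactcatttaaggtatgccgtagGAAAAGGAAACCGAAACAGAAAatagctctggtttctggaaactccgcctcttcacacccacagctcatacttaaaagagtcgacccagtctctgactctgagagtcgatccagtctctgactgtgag
Cxcl10, chr5:92348840-92349139, minus strand: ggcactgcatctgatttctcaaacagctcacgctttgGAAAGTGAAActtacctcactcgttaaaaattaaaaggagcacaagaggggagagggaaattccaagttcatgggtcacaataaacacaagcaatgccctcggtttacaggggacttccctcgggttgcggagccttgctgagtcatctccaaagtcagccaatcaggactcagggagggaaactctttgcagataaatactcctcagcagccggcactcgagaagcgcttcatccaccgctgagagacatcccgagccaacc
Irgm1, chr11:48871371-48871670, minus strand: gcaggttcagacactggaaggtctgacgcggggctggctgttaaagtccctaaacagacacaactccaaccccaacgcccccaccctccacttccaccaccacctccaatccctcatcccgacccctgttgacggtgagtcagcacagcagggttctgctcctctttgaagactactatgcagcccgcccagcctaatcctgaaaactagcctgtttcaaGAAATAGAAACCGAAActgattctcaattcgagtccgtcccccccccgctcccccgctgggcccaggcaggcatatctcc
The promoter of Isg15 held 3 overlapping matches, that of Irgm1 2 overlapping matches and that of Cxcl10 1. RefSeq gave a promoter for 7 of the 9 interferon genes that were higher, and 4 of the 7 held a match, the fourth being Rsad2. Oasl1, Serpina3g and Cd274 had none in this window, and Rtp4 and Iigp1 had no entry. Over all promoters 1131 of 32851 held a match, or 3.44%. A match is a run of letters and was not measured as a bound site.

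Isg15, a ubiquitin-like protein and among the strongest interferon-induced genes, stood at 195 CPM in the Ctrl and 25.5 in the Tim3-KD library of adjacent tissue, 113 and 279.9 in micrometastases, and 73.6 and 82.5 in macrometastases. It was highest in Tim3-KD micrometastases. There the ratio of Tim3-KD to Ctrl was 2.47-fold (95% interval 2.02 to 3.02), and 3.71 in core cells, while the other CD45+ cells had 0.642. Its UMIs were spread over 41 of 75 Tim3-KD cells and 67 of 144 Ctrl cells, and the ratio without the cell with most UMIs in each library was 2.04. In macrometastases Isg15 was 1.12-fold (95% interval 0.857 to 1.46), an interval that includes 1.

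Oasl1, an antiviral protein of the same response, was at 102 CPM with Tim3-KD and 39.5 CPM with Ctrl, and a UMI was found in 41.3% of Tim3-KD and 23.6% of Ctrl cells, although the Tim3-KD cells were shallower. The ratio was 2.59-fold (95% interval 1.84 to 3.65), 2.81 in core cells and 0.910 in other cells. Rsad2, which blocks viral replication, was at 79.8 CPM with Tim3-KD and 20.6 CPM with Ctrl, or 3.85-fold (95% interval 2.51 to 6.05). Rsad2 was at 86.3 CPM in Ctrl adjacent tissue, as high as in Tim3-KD micrometastases.

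Cxcl10, the chemokine that draws Cxcr3+ effector T cells, was at 14.1 CPM in the Ctrl and 11.8 in the Tim3-KD library of adjacent tissue, 32.0 and 101 in micrometastases, and 84.3 and 30.9 in macrometastases. The ratio in micrometastases was 3.14-fold (95% interval 2.19 to 4.54) and in core cells 4.85. It rested on few cells, 6 of 75 in Tim3-KD and 13 of 144 in Ctrl, or 8% and 9.03%, so the higher level came with more UMIs per positive cell and not with a higher share of them. Cxcl9, its partner, was at 42.0 CPM with Tim3-KD and 27.5 CPM with Ctrl, or 1.54-fold (95% interval 0.935 to 2.46). Serpina3g, an interferon-gamma induced protease inhibitor, was at 245 CPM with Tim3-KD and 39.5 CPM with Ctrl and 6.18-fold higher, with 45.1% of the Tim3-KD UMIs in 1 cell, and 7.20-fold higher without the top cell of each library. The GTPases Iigp1 and Irgm1 were 3.18-fold and 2.26-fold higher. Cd274, which encodes the checkpoint ligand PD-L1, was at 39.2 CPM with Tim3-KD and 14.3 CPM with Ctrl, or 2.73-fold (95% interval 1.54 to 4.90), and was detected in 25.3% of Tim3-KD and 11.8% of Ctrl cells. In the other CD45+ cells the ratio of Cd274 was 0.678, and the share with a UMI was 16.5% and 15.9%.

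Markers of other cells moved with this result: in the chosen cells of micrometastases the summed Kupffer markers were as given above, and the 8 monocyte markers summed to 1795 CPM with Tim3-KD and 1083 CPM with Ctrl, or 459 and 564 in core cells, with no marker of either list at 0. Without the cells that had 3 or more genes of another cell type, the ratio of Tim3-KD to Ctrl was 3.35 for Isg15, 2.31 for Oasl1, 3.60 for Cxcl10, 5.58 for Rsad2, 2.17 for Irgm1 and 3.37 for Cd274, all still past 2-fold. Rtp4 was 1.33-fold in that setting. When every cell was given the same weight in place of its UMIs, the log2 difference was 0.54 for Isg15 and 0.98 for Cd274, short of 2-fold, and 1.29 for Cxcl10, 1.13 for Oasl1, 1.11 for Rsad2 and 1.62 for Irgm1. With cells chosen by a UMI of at least 2 rule genes, the wider group given above, the direction turned, at -0.81 for Isg15, -0.17 for Cxcl10, -0.19 for Cd274 and -0.90 for Irgm1. It also turned for Rsad2 at -0.12, Iigp1 at -0.68 and Rtp4 at -0.74, and stayed the same for Oasl1 at 0.12.

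**Figure D4:**
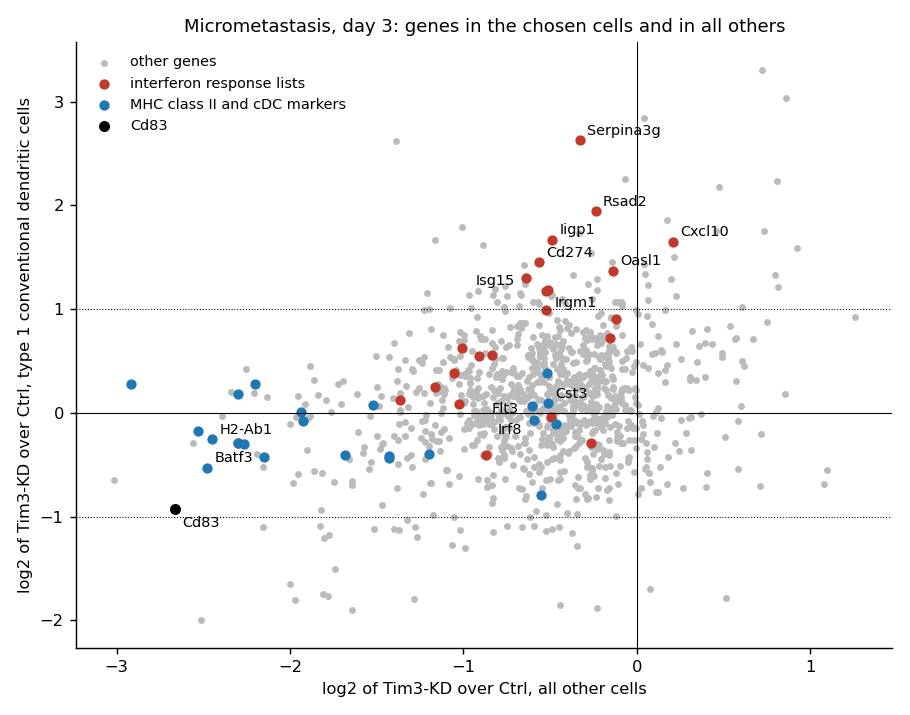
Log2 ratio of Tim3-KD to Ctrl in micrometastases for each gene compared, in the other CD45+ cells (x axis) and in the chosen dendritic cells (y axis), with interferon response genes in red, MHC class II and dendritic cell markers in blue and Cd83 in black. The labelled red genes lie above 1 on the y axis and near or below 0 on the x axis, Isg15 at 1.30 and -0.64.

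In all, 70 of 1038 genes were past 2-fold higher (6.74%) and 36 lower (3.47%) in Tim3-KD micrometastases, and of the 41 of these that could be compared in core cells 33 were past 2-fold there too. Centred on the trimmed mean of all genes the split was 51 higher and 45 lower, and with every cell weighted equally it was 45 and 55, so the excess of higher genes depends on the scaling. The 8 highest genes under the limits on detection and single cells were Hopx, Fkbp5, Cd274, Oasl1, Dpep2, Fads1, Trem1 and Dtx3l. Hopx, a small homeodomain protein, was at 75.6 CPM with Tim3-KD and 16.6 CPM with Ctrl. Only 4 of its 54 Tim3-KD UMIs and 2 of its 29 Ctrl UMIs lay in core cells, and without the cells that carried genes of another cell type the ratio was 2.31 in place of 4.52. Dpep2 likewise was 2.53-fold in all and 1.25-fold without those cells. Fkbp5, a glucocorticoid-induced chaperone, was at 60.2 CPM with Tim3-KD and 17.7 CPM with Ctrl. Dtx3l, an interferon-induced ubiquitin ligase, was 2.27-fold (95% interval 1.43 to 3.60) and 3.02 in core cells, and its ratio in the other cells was 0.854. Trem1, a receptor of myeloid cells that is not typical of cDC1, was at 84.0 CPM with Tim3-KD and 35.5 CPM with Ctrl.

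The 8 lowest were Ltb, Ass1, Ebpl, Ifrd1, Vps13a, Xlr, Gpr183 and Trim35. Ltb, a lymphotoxin subunit, was at 8.40 CPM with Tim3-KD and 36.0 CPM with Ctrl, with a ratio of 0.250, and the other cells had 0.175. Ass1, which makes arginine from citrulline with its partner enzyme, was at 14.0 CPM with Tim3-KD and 50.3 CPM with Ctrl, or 0.290-fold (95% interval 0.129 to 0.536). It was also lower in core cells (0.254) and higher in the other cells (1.43). Gpr183, the oxysterol receptor that positions dendritic cells in lymphoid tissue, was at 28.0 CPM with Tim3-KD and 65.8 CPM with Ctrl, or 0.434-fold. Trim35 was at 33.6 CPM with Tim3-KD and 75.5 CPM with Ctrl, and Xlr at 19.6 CPM with Tim3-KD and 48.6 CPM with Ctrl. Among these genes the ratio was short of 2-fold or turned in core cells for Dpep2 (1.68) and Vps13a (0.580), and without the cells that carried genes of another cell type for Dpep2 (1.25) and Vps13a (0.510). Where cells were chosen by a UMI of at least 2 rule genes the log2 difference turned, to -0.15 for Dpep2, 0.87 for Ass1 and 0.01 for Vps13a. Among chemokines and cytokines 17 were compared, 4 were higher past 2-fold (Ccl5, Cxcl1, Cxcl10 and Il1a) and none was lower, where 6.74% of all genes were higher. Ccl5 held 74.5% of its Tim3-KD UMIs in 1 cell. Of 19 genes of dead cell uptake and endosomal handling 3 were past 2-fold, where 10.2% of all genes were: the receptors Axl and Mertk were higher, at 2.01-fold and 2.32-fold, and Stab1, a scavenger receptor of endothelium and macrophages, was lower. Without the cells that carried genes of another cell type Axl was 0.482-fold, so its direction turned. In that setting 2 UMIs of Mertk, 4 of Stab1, 6 of Cxcl1 and 5 of Il1a were left in both libraries together, too few for a ratio.

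In macrometastases the question was the same for established lesions, and the interferon genes did not separate the lines in the same way. Of 991 genes compared 53 were higher (5.35%) and 46 lower (4.64%) past 2-fold, and of the 34 that could be compared in core cells 17 were past it there. Counted over core cells alone the split was 3 higher and 39 lower, and with cells chosen by a UMI of at least 2 rule genes it was 250 higher and 48 lower, so the balance of higher and lower genes depends on which cells are taken. The type I interferon list had no gene higher and 1 lower (Rsad2) among 12, with a median log2 difference of -0.10. With cells chosen by a UMI of at least 2 rule genes the log2 difference turned, at 0.74 for Rsad2. The interferon-gamma list had 0 higher and 2 lower (Cxcl9 and Cxcl10) among 9. Cxcl9 was at 75.0 CPM with Tim3-KD and 163 CPM with Ctrl, a ratio of 0.462 (0.357 to 0.587), 0.432 in core cells and 0.562 in the other CD45+ cells. Cxcl10 was at 30.9 CPM with Tim3-KD and 84.3 CPM with Ctrl, with ratios of 0.371, 0.139 and 0.354. These chemokines were thus lower in the chosen cells and in their neighbours alike. The difference between the sites was not tested.

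Cxcr4, the receptor of the retention chemokine Cxcl12, was highest in the Tim3-KD macrometastases. It was at 39.2 CPM with Tim3-KD and 46.3 with Ctrl in micrometastases, and 91.9 with Tim3-KD and 30.4 with Ctrl in macrometastases. The ratio in macrometastases was 3.02-fold (95% interval 2.20 to 4.16) and 2.98 in core cells, while the other cells had 1.09. A UMI of Cxcr4 was found in 57.7% of Tim3-KD and 27.4% of Ctrl cells, and in 47.8% and 39.0% of the other cells, so among chosen cells the difference was one of detection and of level. Without the cells that carried genes of another cell type it was 3.04-fold.

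The other 7 genes named as higher in Tim3-KD macrometastases were C1qb, C1qa, Ccl6, H4c4, Tmem87b, Cenpa and Tsix. C1qa and C1qb encode complement chains of macrophages and belong to the Kupffer list. C1qa was at 500.5 CPM with Tim3-KD and 192 CPM with Ctrl and C1qb at 416 CPM with Tim3-KD and 144 CPM with Ctrl, but in core cells their ratios were 0.852 and 1.05. Ccl6 went from 2.58-fold to 0.720-fold in the same way. Tmem87b was 2.48-fold higher and 2.70-fold in core cells. Tsix overlaps its sense partner, and reads of the pair may not be told apart here. The 8 lowest were Erdr1, Siah2, Ibtk, Tob1, Wasl, Marcksl1, Ubr1 and Lmna. Siah2, a ubiquitin ligase of the hypoxia pathway, was at 7.50 CPM with Tim3-KD and 27.0 CPM with Ctrl, and its ratio was 0.293 in all and 0.253 in core cells. Tob1, a brake on proliferation, was at 12.2 CPM with Tim3-KD and 33.8 CPM with Ctrl, and Marcksl1, a cytoskeletal protein of mature dendritic cells, at 17.8 CPM with Tim3-KD and 47.5 CPM with Ctrl. Erdr1 was at 1.87 CPM with Tim3-KD and 25.3 CPM with Ctrl, and its ratio in the other cells was 0.0145, so the low value was shared by the library. The ratio of named genes was short of 2-fold or turned in core cells for C1qb (1.05), C1qa (0.852), Ccl6 (0.720), H4c4 (1.12), Cenpa (1.57), Tsix (1.72) and Ibtk (0.525), and without the cells that carried genes of another cell type for C1qa (1.91) and Ccl6 (1.73).

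Genes of mitosis and DNA replication were higher in Tim3-KD macrometastases over all chosen cells. Of 18 compared 13 were past 2-fold higher and none lower, where 5.35% of all genes were higher, with a median log2 difference of 1.13. In core cells 13 were compared, none was past 2-fold and the median was 0.33, where 3 of all 572 genes were higher and 39 lower. In the other CD45+ cells the median was 1.04, against -0.23 over all genes compared. Mki67, a marker of cycling cells, was at 10.6 CPM in the Ctrl and 3.92 in the Tim3-KD library of adjacent tissue, 11.4 and 54.6 in micrometastases, and 30.0 and 75.0 in macrometastases. Its UMIs lay in 13 of 78 Tim3-KD and 16 of 157 Ctrl cells. A per-cell count of 16 such genes put 42.0% of Ctrl and 51.3% of Tim3-KD cells at 3 or more UMIs, a difference of 9.24 points (-4.16 to 22.3). Thinned to 1500 UMIs, the shares were 7.01% and 8.97%, and 3.97% and 8.61% in the other cells. In core cells the shares were 52.3% of Ctrl and 70.5% of Tim3-KD cells as sequenced, a difference of 18.2 points (0.874 to 32.9) with an interval above 0, and 8.26% and 6.82% after thinning, a difference of -1.44 points (-9.49 to 10.6). In micrometastases 4 of 10 genes were higher (Birc5, Mki67, Top2a and Ube2c) and none lower, where 6.74% of all genes were higher, with a median log2 difference of 0.78. In core cells 5 of 9 were higher, where 55 of all 606 genes were, with a median of 1.01. The other CD45+ cells had 0.67 there. As sequenced, 40.3% of Ctrl and 32% of Tim3-KD cells of micrometastases reached 3 or more UMIs, a difference of -8.28 points (-20.8 to 5.30). In core cells that difference was -8.33 points (-25.7 to 9.87). The thinned shares of micrometastases were 3.47% and 4%. With every cell thinned to 1500 UMIs the interval of the difference in share spanned 0 at each site, in all chosen cells and in core cells.

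**Figure D5:**
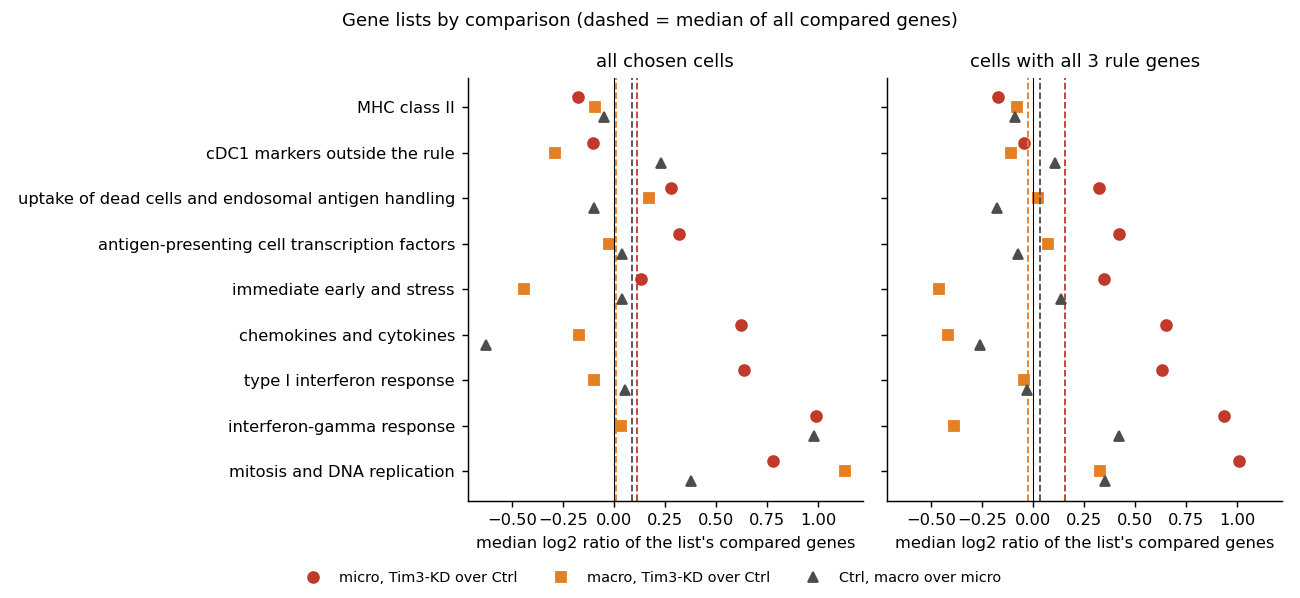
Median log2 ratio of each gene list in the chosen cells, for Tim3-KD over Ctrl in micrometastases and in macrometastases and for Ctrl macrometastases over Ctrl micrometastases, for all chosen cells and for core cells, with the median of all genes as a dashed line. The interferon-gamma list stands at 0.99 in micrometastases, and the mitosis list in macrometastases stands at 1.13 in all chosen cells and 0.33 in core cells.

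Between day 3 micrometastases and day 12 macrometastases of the Ctrl line, 55 of 922 genes were higher (5.97%) and 65 lower (7.05%) past 2-fold, or 13% in all. Site, time after injection and library cannot be told apart in this comparison, which shares its libraries with the comparisons of the lines. Cxcl9 was higher in macrometastases, at 163 against 27.5 CPM, or 5.88-fold (95% interval 4.39 to 8.19), and 4.36 in core cells. Cxcl10 was 2.62-fold and Iigp1 2.39-fold higher, so 3 of 9 interferon-gamma genes were higher and none lower. In the other CD45+ cells Cxcl9 and Cxcl10 were 5.48-fold and 3.23-fold higher. Cd83 was level, at a ratio of 1.01 (0.912 to 1.12), and so were the MHC class II genes, none of 8 past 2-fold. Irf8, Flt3 and Havcr2 had ratios of 1.12, 1.25 and 0.930.

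The 8 lowest genes in Ctrl macrometastases were Tmem176a, Tmem176b, Stfa2l1, Clec4a3, Ms4a6d, Clec7a, S100a4 and Cd14, most of them known from monocytes, macrophages or neutrophils. Tmem176a, an ion channel protein of dendritic and other myeloid cells, was at 3.42 CPM against 91.0 CPM, a ratio of 0.0399, and its neighbour Tmem176b had 0.0842. Both were lower in core cells as well, at 0.0178 and 0.0353, and nearer to level in the other cells, at 0.685 and 0.748. Cd14 was at 50.5 against 273 CPM. The monocyte markers as a list summed to 1083 CPM in Ctrl micrometastases and 377 CPM in Ctrl macrometastases, and their part in these differences was not tested. In core cells the sums were 564 and 327. The highest genes were Imp3, Wasl, Ccdc85b, Tnfaip1, Cyth3, Fam53a, Kbtbd11 and N4bp2. Imp3 was 4.06-fold higher and 3.25-fold higher in the other cells. Of the highest and lowest genes named, the ratio was short of 2-fold or turned in core cells for Tnfaip1 (1.87), and without the cells that carried genes of another cell type for Tnfaip1 (1.73) and Cyth3 (1.26). With a mean above 2 as the rule the log2 difference of S100a4 turned, to 0.57.

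For the Tim3-KD line the comparison of the same sites gave 43 genes higher (9.23%) and 67 lower (14.4%) among 466, or 23.6% past 2-fold, 72 higher and 51 lower with every cell weighted equally, and 11 higher and 45 lower over core cells alone. Isg15, Oasl1 and Rsad2 were lower in macrometastases, at ratios of 0.296, 0.424 and 0.134, and Cxcl10 and Serpina3g were at 0.309 and 0.338. Where cells were chosen by a UMI of at least 2 rule genes the log2 difference turned, to 0.17 for Isg15, 0.84 for Oasl1, 1.59 for Rsad2 and 1.01 for Serpina3g. The monocyte markers summed to 1795 CPM in the chosen cells of Tim3-KD micrometastases and 319.6 CPM in those of macrometastases, or 459 and 240.3 in core cells, no marker was at 0 in the chosen cells, and their part in these differences was not tested. The type I interferon list had a median of -0.91 in the chosen cells and 0.99 in the other cells, where all genes compared had 0.95. Xlr, Trim35, Vps13a, Dut, Hmgn1, Ass1, Mylip and Arrdc4 were the highest, and Xlr was at 95.6 CPM. Hopx, Ccr1, Trem1, Cd14, S100a4, Il1r2, Plk2 and Csf3r were the lowest, several of them genes of monocytes or neutrophils, and Hopx was at 2.81 against 75.6 CPM. The ratio was short of 2-fold in core cells for Dut (1.63), Mylip (1.62), Arrdc4 (1.63) and Il1r2 (0.504). Where cells were chosen by a UMI of at least 2 rule genes the log2 difference turned, to -0.79 for Dut, -1.38 for Ass1 and 0.74 for Plk2. In Tim3-KD macrometastases Trim35 was at 130.3 CPM, and the Ctrl levels there were 98.4 CPM for Xlr and 149.8 CPM for Trim35.

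Adjacent tissue held 32 Ctrl and 19 Tim3-KD cells, and 33.1% of the 420 genes compared were past 2-fold, 70 higher (16.7%) and 69 lower (16.4%). Without the cells that carried genes of another cell type 158 genes could be compared, and the split was 9 higher and 38 lower. Jun, an immediate early transcription factor, was at 951 CPM with Tim3-KD and 220.1 CPM with Ctrl, or 4.31-fold (95% interval 3.54 to 5.30), with 7.94 in the other cells. The higher genes named beside it were Mrps24, Colgalt1, Abhd17a, Ier2, Alb, Ifi211 and Itgb1. Alb, the albumin of hepatocytes, was at 94.1 CPM with Tim3-KD and 38.7 CPM with Ctrl. Tbc1d4, a regulator of vesicle transport that marked these cells in adjacent tissue, was at 52.9 CPM with Tim3-KD and 247 with Ctrl, or 0.218-fold (95% interval 0.137 to 0.326), and was 2.76-fold in the other cells. Il1r2, Pglyrp1, Ccrl2 and Tnfaip2 were lower too. The ratio among the named genes was short of 2-fold or turned in core cells for Alb (1.91) and Tnfaip2 (0.662), and without the cells that carried genes of another cell type for Jun (0.989), Alb (1.22) and Itgb1 (1.07). Choosing cells by a UMI of at least 2 rule genes turned the log2 difference to 0.55 for Ccl7, 0.48 for Ccrl2, 0.53 for Tbc1d4, 1.09 for Tnfaip2, 2.22 for Irf7, 0.61 for Isg15, 3.58 for Rsad2, 0.18 for Zbp1 and 1.14 for H2-Oa. Ly6a, Ccl7 and Wfdc21 had 70, 77 and 59 UMIs in the Ctrl cells and 0 in the Tim3-KD cells. A count of 0 there allows up to 5.88 CPM, or 3 UMIs over the library's chosen cells, and against this floor Ly6a was at least 21.0-fold, Ccl7 at least 23.1-fold and Wfdc21 at least 17.7-fold lower. Of 11 type I interferon genes 1 was higher (Ifi211) and 5 were lower (Irf7, Isg15, Ly6a, Rsad2 and Zbp1). In core cells the direction of Rsad2 turned, at a log2 difference of 3.40. Markers of other cells differed as well, the Kupffer list as given above and the 5 neutrophil markers held at a sum of 11.8 CPM with Tim3-KD, where 3 of them were at 0, and 181 CPM with Ctrl, and their part in these differences was not tested.

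From adjacent tissue to micrometastases of the Ctrl line 105 of 769 genes were higher (13.7%) and 38 lower (4.94%), or 18.6%, and centred on the trimmed mean 80 and 54. Batf3 was 2.35-fold (95% interval 1.73 to 3.34) and 2.33 in core cells. It was the only one of 8 cDC1 markers outside the rule past 2-fold. Ccl24, an eosinophil chemokine of macrophages, was 6.33-fold higher and 12.5-fold higher in the other cells, and the other highest genes were Gabarapl1, Tent5a, Ppp1r21, Celf1, Matk, Tbxas1 and Hmgcs1. Tbc1d4 was lower, at 0.336-fold, 0.333-fold in core cells, and so were Ccl7, Hspa4l, Dusp2, Clec4d, Baiap2, Il1r2 and Dnase1l3. Dnase1l3, the secreted nuclease of dendritic cells, was at 373 CPM in adjacent tissue and 153 CPM in micrometastases, and was 5.62-fold in the other cells. Of the genes named here, the ratio was short of 2-fold or turned in core cells for Il1r2 (1.06), and without the cells that carried genes of another cell type for Il1r2 (0.506). With cells chosen by a UMI of at least 2 rule genes the log2 difference turned, at -0.27 for Ppp1r21, 0.66 for Ccl7, 0.14 for Hspa4l, 0.06 for Dusp2, 0.74 for Clec4d, 0.03 for Il1r2 and 0.13 for H2-Oa.

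In the Tim3-KD line 82 of 408 genes were higher (20.1%) and 45 lower (11%) in micrometastases than in adjacent tissue, or 31.1% past 2-fold, 54 higher and 4 lower without the cells that carried genes of another cell type, and 71 and 62 centred on the trimmed mean or 85 and 72 with every cell weighted equally. The highest were Ly6a, Hdc, Hopx, Il1r2, Pglyrp1, Ccr1, Ier3 and Csf3r, of which Ly6a had 86 UMIs in micrometastases and 0 in adjacent tissue, at least 20.5-fold higher against the same floor. Of 12 chemokines and cytokines 8 were higher and none lower, Cxcl10 at 7.96-fold among them, and Isg15 was 10.6-fold higher. Choosing cells by a UMI of at least 2 rule genes turned the log2 difference to -0.64 for Isg15 and -1.65 for Cxcl10. The 8 lowest under the limits on detection and single cells were Jun, Cd81, Otulinl, Uvrag, Trim35, Alb, Ly86 and P2ry10. Of these Alb, Ly86 and P2ry10 were short of 2-fold, at 0.508, 0.509 and 0.553, and genes of lower ratio such as Adgre1, at 0.331, were outside those limits. Among the named genes the ratio was short of 2-fold or turned in core cells for Hopx (1.53, from 6 UMIs), Uvrag (0.537) and Trim35 (0.536), and without the cells that carried genes of another cell type for Hopx (1.30), Jun (1.02), Otulinl (0.798) and Uvrag (0.503). These ratios rest on 19 cells of the adjacent Tim3-KD library, with the Kupffer sum of 4571 CPM in them, and the part of those markers was not tested.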

How the data were processed

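The authors trimmed reads with Trim Galore 0.4.3, aligned them with STAR 2.7.7a to GRCm38, counted UMIs over exons and introns, filtered cells on depth and mitochondrial share, removed doublets with scrublet and deposited a scaled score per variable gene and cell. In the model found in the values, scores were centred, freed of a linear dependence on the cell's total UMIs and divided by a spread per gene and site. They were capped at 10, and those of different sites were scaled apart. From the deposited scores the whole UMI counts and each cell's total were recovered, 99.9971% or more of the nonzero values coming out whole within 0.05. Of the totals below the median of their site, 88.5% to 98.8% came out whole within 0.05. Capped values, 0.159% to 0.401% of those of chosen cells, are lower limits. Features that join several genes were left out.

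Shares have exact binomial (Clopper-Pearson) intervals and their differences Newcombe intervals, and the differences paired by site were tested by exact two-sided sign-flip permutation. Levels are summed UMIs in each 1000000, with exact Poisson intervals, and ratios have exact conditional binomial intervals. A ratio past 2-fold, with 0.5 added to each sum and at least 50 UMIs over both libraries, was called. Named genes are those of the rule and of the gene lists, the 10 of highest ratio to the other cells at each site with a UMI in at least 25% of chosen cells, and in each comparison the 8 highest and 8 lowest with a UMI in at least 20% of cells of the higher library and no cell holding over 25% of them, leaving out mitochondrial, ribosomal, haemoglobin, immunoglobulin, T cell receptor and unnamed genes and Xist. A few others, named with the cells that carry them, were chosen after their values were seen. The cells and lists were chosen with earlier results of these data known. Neutrophils were cells with a mean score of neutrophil markers above 0.5. Core cells, the removal of cells with genes of other types and of the cell with most UMIs were added after seeing the data. Python 3.11.15, numpy 2.4.6, scipy 1.17.1 and pandas 2.3.3 were used, and the steps were tested on simulated data.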

Additional observations from a re-analysis of the deposited data

Results flagged for a closer look

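The share of type 1 conventional dendritic cells was 1.73 percentage points higher in the Tim3-KD than in the Ctrl library of adjacent tissue, where micrometastases and macrometastases had a lower share with Tim3-KD. It is listed because the difference had opposite signs at different sites, and the difference between sites was not tested. The adjacent value rests on 32 and 19 cells, and its interval for core cells, -0.0922 to 2.59 points, spans 0.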

How the results depend on the processing

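The share of the chosen cells kept its direction in micrometastases and macrometastases under all 8 alternatives. In adjacent tissue, 1.73 points as reported, it turned to -2.90 points with cells chosen by UMIs and to -0.0758 without cells carrying 3 genes of another type, and was 0.0764 without cells above the 95th percentile of UMIs. In micrometastases it was -2.27 points with a mean above 1 as the rule and -0.256 with cells chosen by UMIs, and in macrometastases -0.882 with cells chosen by UMIs and -0.986 without cells carrying genes of another type. For Tim3-KD over Ctrl in micrometastases the number of genes past 2-fold, 106 as reported, was 271 with a minimum of 20 in place of 50 UMIs (183 higher), 69 with a mean above 2 (42 higher), 312 with cells chosen by UMIs of at least 2 rule genes (44 higher) and 52 without cells carrying 3 genes of another type (33 higher). For Tim3-KD over Ctrl in macrometastases the number of genes past 2-fold, 99 as reported, was 224 with a minimum of 20 in place of 50 UMIs (116 higher), 192 with a mean above 1 as the rule (149 higher), 298 with cells chosen by UMIs of at least 2 rule genes (250 higher), 42 in core cells (3 higher) and 42 without cells carrying 3 genes of another type (20 higher). For Tim3-KD over Ctrl in adjacent tissue the number of genes past 2-fold, 139 as reported, was 502 with a minimum of 20 in place of 50 UMIs (311 higher), 393 with a mean above 1 as the rule (259 higher), 81 with a mean above 2 (34 higher), 1505 with cells chosen by UMIs of at least 2 rule genes (1088 higher) and 47 without cells carrying 3 genes of another type (9 higher). For macrometastases over micrometastases of Ctrl the number of genes past 2-fold, 120 as reported, was 223 with a minimum of 20 in place of 50 UMIs (106 higher), 244 with a mean above 1 as the rule (108 higher), 70 with a mean above 2 (24 higher), 534 with cells chosen by UMIs of at least 2 rule genes (246 higher), 52 in core cells (27 higher) and 60 without cells carrying 3 genes of another type (21 higher). For macrometastases over micrometastases of Tim3-KD the number of genes past 2-fold, 110 as reported, was 273 with a minimum of 20 in place of 50 UMIs (119 higher), 186 with a mean above 1 as the rule (111 higher), 55 with a mean above 2 (18 higher), 740 with cells chosen by UMIs of at least 2 rule genes (515 higher), 56 in core cells (11 higher) and 42 without cells carrying 3 genes of another type (13 higher). For micrometastases over adjacent tissue of Ctrl the number of genes past 2-fold, 143 as reported, was 336 with a minimum of 20 in place of 50 UMIs (243 higher), 279 with a mean above 1 as the rule (243 higher), 293 with cells chosen by UMIs of at least 2 rule genes (265 higher), 68 in core cells (46 higher) and 69 without cells carrying 3 genes of another type (45 higher). For micrometastases over adjacent tissue of Tim3-KD the number of genes past 2-fold, 127 as reported, was 361 with a minimum of 20 in place of 50 UMIs (209 higher), 351 with a mean above 1 as the rule (159 higher), 68 with a mean above 2 (54 higher), 1110 with cells chosen by UMIs of at least 2 rule genes (255 higher), 83 in core cells (50 higher) and 58 without cells carrying 3 genes of another type (54 higher).

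The log2 difference turned its direction with a mean above 1 as the rule for these genes: Axl -0.018 for Tim3-KD over Ctrl in micrometastases, Rsad2 0.44 for Tim3-KD over Ctrl in macrometastases, Rsad2 0.53 for Tim3-KD over Ctrl in adjacent tissue, Ass1 -0.012 for macrometastases over micrometastases of Tim3-KD. The log2 difference turned its direction with a mean above 2 for these genes: Axl -0.047 for Tim3-KD over Ctrl in micrometastases, S100a4 0.57 for macrometastases over micrometastases of Ctrl. The log2 difference turned its direction with cells chosen by UMIs of at least 2 rule genes for these genes: Cd274 -0.19, Dpep2 -0.15, Ass1 0.87, Vps13a 0.013, Cxcl10 -0.17, Ccl5 -0.71, Isg15 -0.81, Rsad2 -0.12, Iigp1 -0.68, Irgm1 -0.90, Axl -0.88, Stab1 0.22, Cxcl1 -0.81, Il1a -0.15 and Rtp4 -0.74 for Tim3-KD over Ctrl in micrometastases, Rsad2 0.74 for Tim3-KD over Ctrl in macrometastases, Ccl7 0.55, Ccrl2 0.48, Tbc1d4 0.53, Tnfaip2 1.09, Irf7 2.22, Isg15 0.61, Rsad2 3.58, Zbp1 0.18 and H2-Oa 1.14 for Tim3-KD over Ctrl in adjacent tissue, Ccl5 -0.10 and Mki67 -1.86 for macrometastases over micrometastases of Ctrl, Dut -0.79, Ass1 -1.38, Plk2 0.74, Isg15 0.17, Oasl1 0.84, Rsad2 1.59 and Serpina3g 1.01 for macrometastases over micrometastases of Tim3-KD, Ppp1r21 -0.27, Ccl7 0.66, Hspa4l 0.14, Dusp2 0.058, Clec4d 0.74, Il1r2 0.032 and H2-Oa 0.13 for micrometastases over adjacent tissue of Ctrl, Isg15 -0.64 and Cxcl10 -1.65 for micrometastases over adjacent tissue of Tim3-KD. The log2 difference turned its direction in core cells for these genes: C1qa -0.23 and Ccl6 -0.47 for Tim3-KD over Ctrl in macrometastases, Rsad2 3.40 for Tim3-KD over Ctrl in adjacent tissue, Il1r2 0.081 for micrometastases over adjacent tissue of Ctrl. The log2 difference turned its direction without cells carrying 3 genes of another type for these genes: Axl -1.05 for Tim3-KD over Ctrl in micrometastases, Jun -0.015 for Tim3-KD over Ctrl in adjacent tissue, Jun 0.022 for micrometastases over adjacent tissue of Tim3-KD. The other genes named as past 2-fold kept their direction in the settings that left at least 10 UMIs, and the cause of each turn was not tested. Under 10 UMIs were left for 18 combinations of gene and setting, which were not counted, and the direction differed in 4 of them. Replicates could not be left out, since each group had 1 library. The replicate numbers pair no libraries, and the share was tested with the libraries paired by site, while genes were not. The 3 settings on core cells, on genes of other types and on the cell with most UMIs, and the test paired by site, were chosen after seeing the data.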
